A study of Mus musculus with 60 samples.

Results

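The regions described here carried trimethylation of histone H3 lysine 27 (H3K27me3) in cells with the wild-type and the H3R26C transgene but gave no H3K27me3 peak in cells with H3R2C. CUT&RUN, which maps a mark by sequencing the DNA fragments that an antibody-guided nuclease cuts out of nuclei, was performed in C3H 10T1/2 cells, an established line of mouse mesenchymal progenitors. The cells carried a lentiviral transgene, driven by the EF1 promoter, for a human H3.1 tagged with HA and FLAG at its C-terminus, either unchanged (H3WT) or with the arginine at position 2, 8, 17 or 26 replaced by cysteine (H3R2C, H3R8C, H3R17C, H3R26C). Every line kept its own H3 genes, so the tagged histone was a part of the pool in all 5 genotypes. Each genotype had 3 labelled replicates per antibody, of which 2 had identical peak lists, which left 2 independent libraries of anti-H3K27me3 and 2 of anti-HA per genotype. H3R17C with anti-H3K27me3 was an exception in that replicates 2 and 3 shared a list and the file name of replicate 1 gave another mark, so replicate 1 is reported apart. The study describes its CUT&RUN replicates as biological, and the labels name no separate cultures, so p-values measure the spread between these libraries, whatever its source.

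The H3K27me3 peaks of H3WT and the H3R2C, H3R8C and H3R26C mutants (8 libraries) were merged where they overlapped or touched, giving 36272 regions, of which 7221 lay on autosomes and had a peak in both H3WT and both H3R26C libraries (eligible regions). Of these, 810 had a peak in neither H3R2C library and are called H3R2C-absent regions below, which is 11.2% of the eligible regions. The remaining 6411 are called other eligible regions, and the 18537 autosomal regions that both libraries of some genotype shared are called consensus regions. The 810 regions were therefore chosen by their H3WT, H3R2C and H3R26C calls, and their H3K27me3 values are given as a description. H3WT also served as the reference for H3R8C, which limits that comparison as said there. The H3R8C, H3R17C and anti-HA lists took no part in the choice. "Absent" means that no peak reached the level of the H3R2C lists, rather than a lack of the mark. Of the 810 regions, 145 also had no peak in either H3R8C library, so not all of them were particular to H3R2C. A peak in both H3R8C libraries and in H3R17C replicates 2 and 3 was present in 390 (48.1%). Only these 390 were missed by H3R2C alone among the lists.

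H3K27me3 is placed by Polycomb Repressive Complex 2 (PRC2), whose catalytic subunit is EZH2 or EZH1, and marks genes that are kept silent in a cell type. In mammals it accumulates over CpG-rich promoters of developmental regulators and spreads from them into broad domains. As a check of the cell type, none of 10 mesenchymal genes (among them Col1a1, Pdgfra and Prrx1) had an H3K27me3 peak at a start site in either library, while 5 of 10 genes of other cell types (Neurod1, Olig2, Foxa2, Pdx1 and Myod1) had one in both and 4 (Spi1, Cdh1, Krt5 and Cdh5) in neither.

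The DNA under the strongest and longest of these regions shows the range of sequence that had no H3R2C peak. For the 6 regions with the highest H3WT signal, all at coding genes, and then for the 3 longest intergenic ones, the 200 bases richest in CpG outside untranslated exons are printed 5′ to 3′ on the forward strand of mm10, with each CG dinucleotide in capitals.

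Eya1, intron, chr1:14305094-14305293, 15 CG: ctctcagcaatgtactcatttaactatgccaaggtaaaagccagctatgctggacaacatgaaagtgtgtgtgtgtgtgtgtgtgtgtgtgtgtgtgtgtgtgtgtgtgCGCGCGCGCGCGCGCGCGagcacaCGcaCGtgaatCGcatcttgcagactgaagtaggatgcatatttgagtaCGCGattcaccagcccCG
Sox21, coding exon, chr14:118235131-118235330, 39 CG: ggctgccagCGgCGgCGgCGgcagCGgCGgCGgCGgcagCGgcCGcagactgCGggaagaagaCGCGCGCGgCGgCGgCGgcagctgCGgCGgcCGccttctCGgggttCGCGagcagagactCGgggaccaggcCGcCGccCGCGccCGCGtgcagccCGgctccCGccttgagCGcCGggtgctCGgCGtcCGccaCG
Sv2c, upstream of the start, chr13:96132614-96132813, 24 CG: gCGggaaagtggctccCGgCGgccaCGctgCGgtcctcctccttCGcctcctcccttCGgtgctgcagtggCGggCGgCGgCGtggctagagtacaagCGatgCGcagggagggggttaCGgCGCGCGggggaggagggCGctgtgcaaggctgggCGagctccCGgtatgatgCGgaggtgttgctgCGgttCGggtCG
Sim2, coding exon, chr16:94085928-94086127, 25 CG: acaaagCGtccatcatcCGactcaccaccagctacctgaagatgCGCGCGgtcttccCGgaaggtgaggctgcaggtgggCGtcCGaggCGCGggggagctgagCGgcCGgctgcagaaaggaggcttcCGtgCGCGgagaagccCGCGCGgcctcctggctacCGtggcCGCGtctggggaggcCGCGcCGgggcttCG
Dhrs7c, Glp2r and Gsg1l2, coding exon of Gsg1l2, chr11:67774678-67774877, 10 CG: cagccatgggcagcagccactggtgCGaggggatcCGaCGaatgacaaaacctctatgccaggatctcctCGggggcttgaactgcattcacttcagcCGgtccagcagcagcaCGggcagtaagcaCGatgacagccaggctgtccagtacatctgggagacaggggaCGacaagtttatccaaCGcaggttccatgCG
Myh13, coding exon, chr11:67348733-67348932, 12 CG: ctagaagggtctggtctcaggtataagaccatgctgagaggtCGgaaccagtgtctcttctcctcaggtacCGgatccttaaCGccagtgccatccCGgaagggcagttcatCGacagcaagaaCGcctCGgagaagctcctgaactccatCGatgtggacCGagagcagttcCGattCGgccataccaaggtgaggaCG
Intergenic region of 25.5 kb, chr1:56206974-56207173, 8 CG: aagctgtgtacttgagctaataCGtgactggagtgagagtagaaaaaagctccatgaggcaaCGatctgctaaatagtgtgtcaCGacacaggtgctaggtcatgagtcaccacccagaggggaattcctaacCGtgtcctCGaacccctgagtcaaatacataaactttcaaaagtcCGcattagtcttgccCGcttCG
Intergenic region of 22.95 kb, chr16:21024755-21024954, 8 CG: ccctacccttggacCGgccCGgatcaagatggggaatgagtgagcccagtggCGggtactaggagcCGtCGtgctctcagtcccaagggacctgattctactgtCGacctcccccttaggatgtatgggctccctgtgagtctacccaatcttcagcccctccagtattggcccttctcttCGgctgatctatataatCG
Intergenic region of 20.85 kb, chr6:40802390-40802589, 7 CG: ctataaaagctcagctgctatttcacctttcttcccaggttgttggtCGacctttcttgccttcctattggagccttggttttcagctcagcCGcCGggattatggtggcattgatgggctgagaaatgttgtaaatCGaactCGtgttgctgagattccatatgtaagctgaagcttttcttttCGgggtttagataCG

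The windows at Sox21, Sv2c and Sim2 were dense in CpG, with 24 to 39 CG in 200 bases and 71.0% to 82.0% G and C. The window of Eya1 held a part of its CG in a simple run that followed a stretch of alternating TG. The windows of the muscle myosin Myh13 and of the Gsg1l2 exon held 12 and 10 CG, and the intergenic windows 7 or 8. Over all members the pattern was similarly mixed. H3R2C-absent regions had a median of 12.2 CG per kb against 9.51 in the other eligible regions and 8.89 in the consensus regions. Their observed over expected CG ratio had a median of 0.241 against 0.194 and 0.186. The 200 bases richest in CpG held a median of 9.0 CG against 8.0 and 7.0. The groups were matched neither for length nor for the share at starts, both given below, so these values do not separate CpG content from either. The 310 regions near a start site had 22.5 CG per kb and the 500 regions away from starts 9.73. A window of 200 bases with at least 50% G and C and an observed over expected ratio of at least 0.6, a usual description of a CpG island, occurred in 472 of the 810 regions (58.3%), in 51.9% of the other eligible regions and in 36.3% of the consensus regions. Repeat-masked bases made up a median of 17.4% of an H3R2C-absent region and 21.8% of another eligible region. The E-box letters CANNTG, which were searched on both strands and can contain the CG counted above, occurred at a median of 5.36 per kb in the H3R2C-absent regions, 5.66 in the other eligible regions and 5.64 in the consensus regions.

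The H3R2C-absent regions were shorter and weaker than the regions that kept a peak. They covered 6.43 Mb in all, with a median length of 6.55 kb (quartiles 4.75 and 9.39 kb), against 10.6 kb for the other eligible regions and 5.95 kb for the consensus regions. Of 971 eligible regions under 5 kb, 226 were H3R2C-absent (23.3%), whereas of 1229 regions of at least 20 kb, 23 were (1.87%). Signal below is the summed signal of the peaks in a region divided by the median over the 5589 regions with a peak in all 8 libraries, so that 1 is the signal of such a typical region. On this scale the median of the H3R2C-absent regions was 0.375 and 0.403 in the H3WT libraries (replicates 1 and 2, then replicate 3) and 0.496 and 0.595 in the H3R26C libraries. The other eligible regions had medians of 0.803 and 0.823 in H3WT and 0.834 and 0.851 in H3R26C. With the eligible regions split by mean H3WT signal into 5 classes of equal size (1 the weakest), the H3R2C-absent share was 23.5% of class 1 and then 15.4%, 8.59%, 6.58% and 1.94%.

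The lowest scaled signal that gave a peak was 0.153 and 0.177 in the H3R2C lists, 0.146 and 0.148 in the H3WT lists and 0.136 and 0.195 in the H3R26C lists. Both H3WT values lay above the higher H3R2C level in 640 of the 810 regions (79.0%), above 3 times that level in 207 (25.6%) and above 10 times in 26 (3.21%). Of all 4026 eligible regions above 3 times the level, these 207 were 5.14%. The summed signal of the strongest regions described below was thus far above the lowest single peak of either H3R2C list. This did not hold for many of the weak ones. The level is that of 1 peak, whereas a region can sum several. Signal spread over several weaker stretches could therefore exceed the level and still go uncalled. Just inside the rule lay a region on chromosome 1 (72857851 to 72862450) with 0.146 and 0.175 in H3WT and 0.351 and 0.267 in H3R26C. Just outside lay a region on chromosome 10 (21183351 to 21187450, at the non-coding gene Gm33619), which had 0.189 and 0.292 in H3WT and passed the H3R2C list of replicates 1 and 2 with 0.153, the lowest value of that list. Of the eligible regions, 698 had a peak in the H3R2C list of replicates 1 and 2 alone and 153 in that of replicate 3 alone. Counting by majority over all 3 labelled replicates, so that the identical pair of lists decided each call, gave 1972 regions in place of 810. Without the H3R2C list of replicates 1 and 2 there were 1541.

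Around the H3R2C-absent regions, H3R2C peaks were often far away. The distances come from the H3R2C lists that the rule used and are a description. The other eligible regions were also longer and stronger. The nearest H3R2C peak lay at a median of 24.7 kb (quartiles 7.59 and 94.3 kb), whereas the nearest further H3R2C peak of the other eligible regions lay at 2.50 kb. A peak within 5 kb was found for 140 H3R2C-absent regions (17.3%) and for 68.2% of the other eligible regions. No H3R2C peak was found within 100 kb of 191 H3R2C-absent regions (23.6%), against 2.43% of the others.

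By annotation, 310 of the 810 regions (38.3%) lay within 1 kb of a transcription start site of a protein-coding or long non-coding gene, 77 (9.51%) overlapped an exon away from starts, 143 (17.7%) were intronic and 280 (34.6%) intergenic. The other eligible regions had 33.7%, 16.2%, 12.7% and 37.4% in the same classes, and the consensus regions 23.8%, 15.1%, 17.3% and 43.8%. The share at starts depended on signal. In signal class 1, 24.4% of the H3R2C-absent regions were at starts against 14.8% of the others, in class 3, 49.2% against 27%, and in class 5, 89.3% (of 28 regions) against 62.6%. Within each class the H3R2C-absent regions thus had the larger share at starts, at a smaller median length (20.6 kb against 24.1 kb in class 5, 4.75 kb against 5.40 kb in class 1).

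The regions tended to lie next to each other. Eligible regions were read in order along each chromosome. Of the H3R2C-absent regions, 52.8% had another one as the next eligible region on at least 1 side. Their 11.2% share of the eligible regions applies to each side alone, so the 2 figures are not directly comparable. They formed 147 runs of 2 or more, holding 428 regions, and 20 runs of at least 5, holding 119. Neighbouring regions can be parts of 1 broad domain, so a run is not a set of independent losses.

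The run with the most regions held 12 over 780 kb of chromosome 11 (67113401 to 67893500). It contains the start of Myh13, a myosin heavy chain of the extraocular and laryngeal muscles, the starts of Dhrs7c, an enzyme of the muscle sarcoplasmic reticulum, of Glp2r, the receptor of glucagon-like peptide 2, and of Gsg1l2 and Usp43. Over Myh13 the H3K27me3 signal was 3.57 and 3.11 in H3WT, 4.33 and 5.39 in H3R26C, 2.77 and 3.40 in H3R8C and 3.67 in H3R17C replicates 2 and 3. Over Dhrs7c, Glp2r and Gsg1l2 it was 3.83 and 3.18 in H3WT, 3.18 and 3.97 in H3R26C, 3.24 and 3.81 in H3R8C and 3.21 in H3R17C. Over Myh13 both H3R26C values lay above those of H3WT, while H3R8C overlapped H3WT, and over Dhrs7c, Glp2r and Gsg1l2 all 4 genotypes overlapped. The same span held 9 further consensus regions that the rule did not take, because a peak was missing in H3WT or H3R26C, and none of the 21 consensus regions had an H3R2C peak. Of the 12 regions, 11 were called in both H3R8C libraries and 9 in H3R17C.

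**Figure D1:**
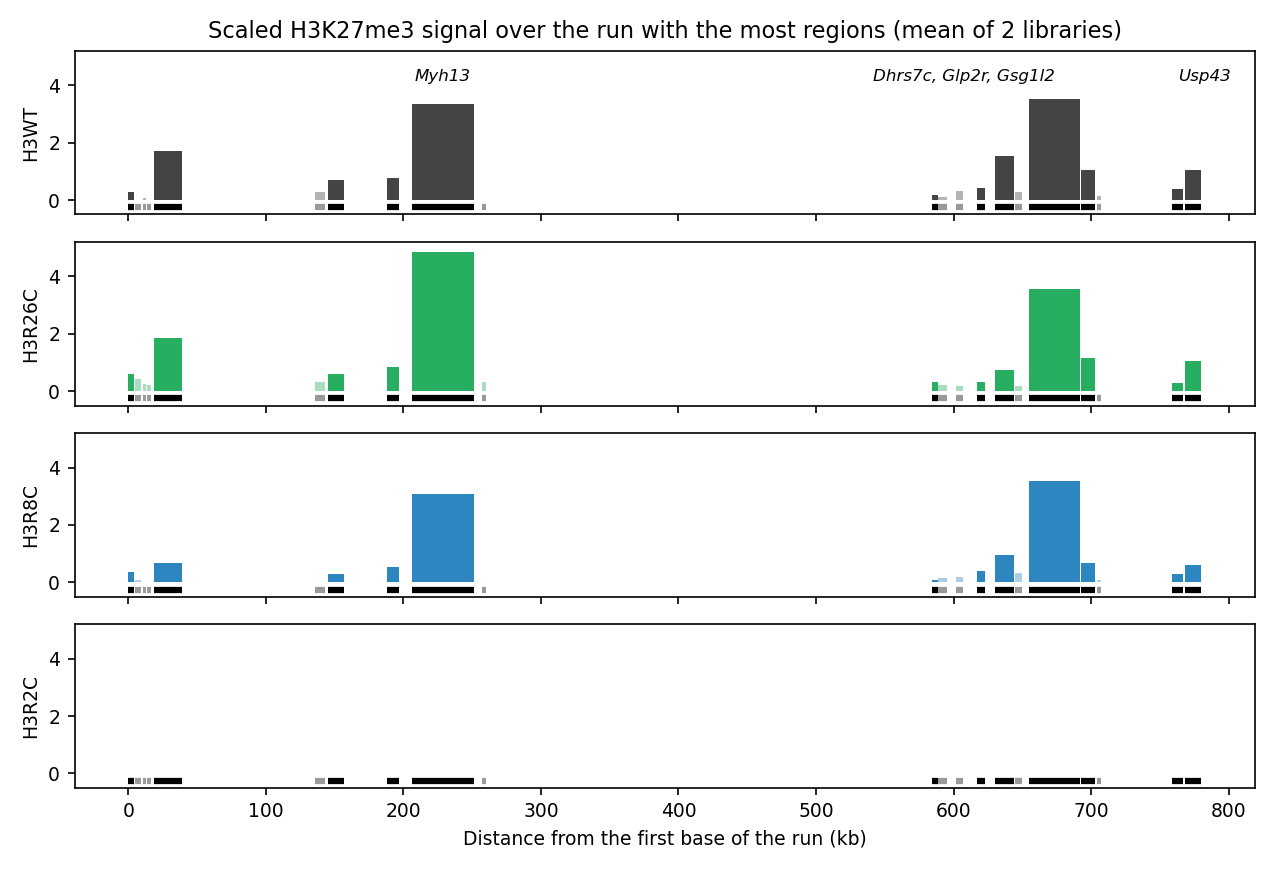
Scaled H3K27me3 signal (y axis, 1 is the median of regions called in all 8 libraries) along the run with the most regions, in kb from its first base, as the mean of the 2 independent libraries of H3WT, H3R26C, H3R8C and H3R2C. Black bars under the axis mark the 12 H3R2C-absent regions and grey bars the 9 further consensus regions, and the H3R2C panel is empty because none of the 21 had a peak there.

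The run with the next most held 9 regions over 602 kb of chromosome 5 (119704951 to 120306500) around Tbx5, a T-box factor of the forelimb and heart. The Tbx5 start had 2.93 and 2.76 in H3WT, 3.6 and 6.26 in H3R26C, 1.43 and 1.87 in H3R8C and 2.67 in H3R17C. H3R8C was the lowest of these genotypes there, without overlapping H3WT. Of 3 runs with 7 regions, the one on chromosome 1 (167638851 to 167766350, 128 kb) lay at Lmx1a, a LIM homeobox factor of midbrain dopamine neurons, with 1.69 and 1.44 in H3WT, 1.29 and 3.47 in H3R26C, 0.985 and 1.27 in H3R8C and 0.325 in H3R17C at its start. None of the 12 consensus regions of the Tbx5 run or of the 11 of the Lmx1a run had an H3R2C peak. In H3R17C all 9 regions of the Tbx5 run were called, and 3 of the 7 of the Lmx1a run.

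Along the genome the regions were unevenly spread. Chromosome 13 held 92 of them, which was 25.8% of its 356 eligible regions, and chromosome 1 held 99 of 590 (16.8%), whereas chromosomes 10 and 19 held 25 of 424 (5.90%) and 18 of 292 (6.16%). Chromosome 13 thus had 11.4% of the H3R2C-absent regions and 4.93% of the eligible ones. The densest stretches of 10 Mb, each with 21 H3R2C-absent regions, were 150000001 to 160000000 of chromosome 1 (52 eligible), 60000001 to 70000000 of chromosome 11 (45 eligible) and 70000001 to 80000000 of chromosome 13 (54 eligible). The signal of regions that kept a peak in all 8 libraries moved with these counts on some chromosomes. On chromosome 13 the median log2 difference from H3WT over 182 such regions was -0.26 and -0.37 in the H3R2C libraries, -0.26 and -0.29 in the H3R8C libraries and 0.12 and 0.31 in the H3R26C libraries. On chromosome 1 it was -0.19 and -0.20 in H3R2C and 0.04 and 0.06 in H3R8C over 383 regions. Chromosome 16 had medians of -0.27 and -0.41 in H3R2C over 155 regions, and 10.5% of its eligible regions were H3R2C-absent. Chromosome 15, with 0.43 and 0.56, had 7.14%. The part of whole-chromosome differences in the counts was not tested, and copy number was not analysed here. Without chromosome 13, 718 regions remained, of which 67.5% were called in both H3R8C libraries, 40.0% lay at starts and 51.5% had another as the next eligible region.

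**Figure D2:**
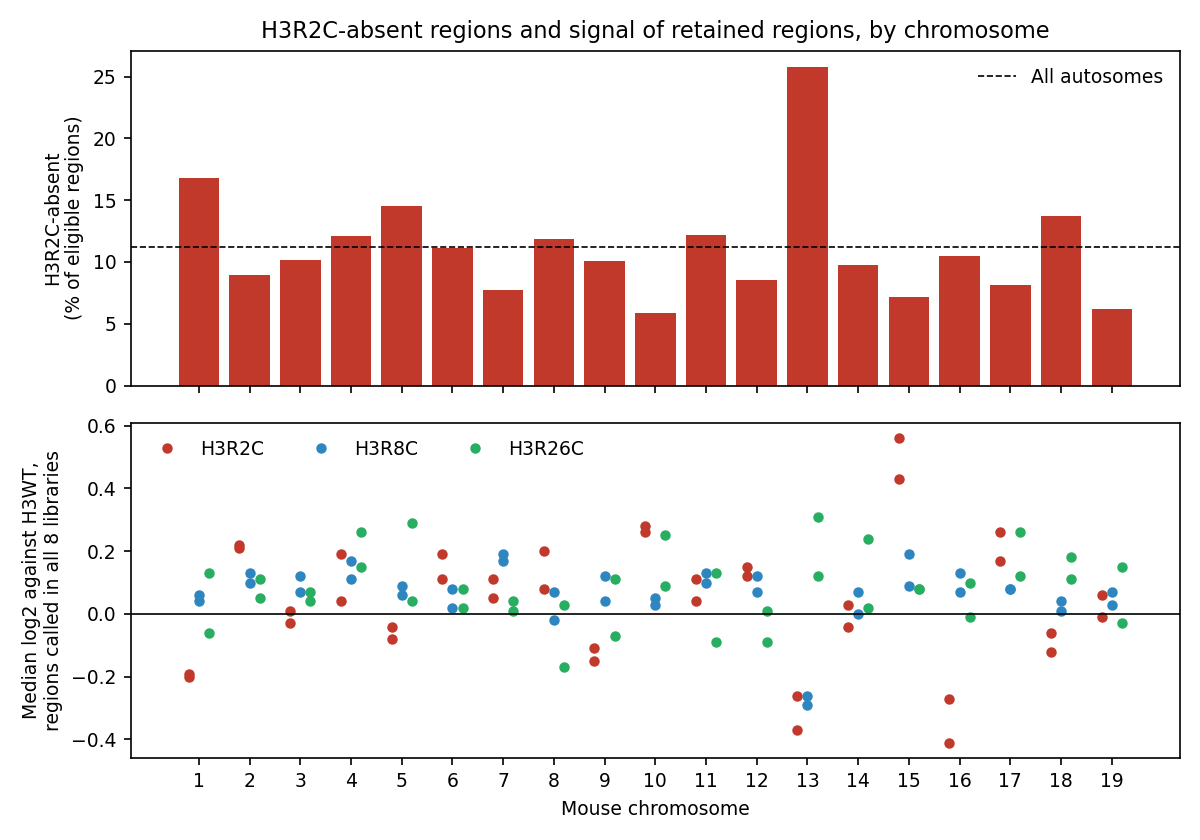
H3R2C-absent regions as a percentage of the eligible regions of each autosome (upper panel, dashed line at 11.2% for all autosomes), and the median log2 difference from the H3WT mean of regions called in all 8 libraries (lower panel, 1 point per library of H3R2C, H3R8C and H3R26C). Chromosome 13 stands at 25.8%, where both H3R2C and both H3R8C points lie below 0 and both H3R26C points above it.

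At protein-coding genes, 282 regions lay near a start and held the starts of 282 genes, out of 2157 genes with an eligible region at a start (13.1%). Developmental transcription factors were among them, but their share was close to that of all genes in several families. Of 78 homeobox genes outside the Hox clusters with an eligible region at the start, 11 were at H3R2C-absent regions (14.1%), among them Pou3f3, Nkx1-1, Gsx1, Prox1, Lmx1a, Alx1 and Isl1. None of the 32 Hox genes with an eligible region was, but these lie side by side in clusters and are not separate observations. The Sox family had 3 of 7 (Sox21, Sox2, Sox13), the forkhead family 3 of 12 (Foxq1, Foxb2, Foxa3), the T-box family 2 of 7 (Tbx5, Eomes), the Pax family 1 of 6 (Pax6), and Gata, Gli, Zic and Klf genes 1 of 6 (Zic4). The basic helix-loop-helix family had 1 of 31, which was Sim2.

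Among signalling and surface proteins the shares ran from none to 4 of 12. Wnt pathway genes had 2 of 22 (Dkk1 and Axin2, both negative regulators), Fgf, Bmp, Gdf and Tgfb family genes 2 of 11 (Bmp7, Fgf12), Notch and Eph genes 0 of 8, and axon guidance genes 1 of 12 (Plxnc1). Potassium, sodium and calcium channel genes had 10 of 58, led in H3WT signal by Kcna1 and Kcnk12, cadherins and protocadherins 4 of 12 (Celsr3, Cdh6, Pcdh10, Fat3), and neurotransmitter receptor channels 1 of 12 (Chrna3). G protein-coupled receptors had 7 of 49, solute carriers 7 of 61, collagens 1 of 7, keratins 0 of 12 and olfactory and vomeronasal receptors 3 of 96. Among lineage genes, the lists held 1 of 3 for cartilage (Col9a1), 0 of 2 for bone, 1 of 2 for fat (Prdm16) and 1 of 5 for muscle (Myh13). These lists were small, so most shares rest on 1 to 3 genes, and no test was made on them.

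The 10 regions with the highest H3WT signal all held the start of a coding gene. In each, both H3WT, both H3R8C and both H3R26C libraries and the H3R17C list of replicates 2 and 3 had a peak, and H3R2C had none. Eya1, a phosphatase and coactivator in ear and kidney development, lay under 31.5 kb of chromosome 1 (14289201 to 14320650) and had the highest H3WT values, 4.86 and 4.01, with 5.37 and 5.02 in H3R8C and 1.71 and 3.51 in H3R26C. Here H3R26C was lower than H3WT in both libraries. Sox21, a factor of neural progenitors, had 3.79 and 3.90 in H3WT, 4.94 and 4.91 in H3R8C and 3.96 and 6.14 in H3R26C. Sim2, a bHLH-PAS factor, had 3.56 and 3.85 in H3WT, 3.96 and 4.30 in H3R8C and 3.87 and 4.56 in H3R26C, with H3R8C just above H3WT and overlapping H3R26C.

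Sv2c, a synaptic vesicle glycoprotein on chromosome 13, had 3.77 and 3.71 in H3WT, 4.01 and 3.91 in H3R8C, 4.62 and 8.19 in H3R26C and 1.03 in H3R17C. Pou3f3, a POU factor of the forebrain and kidney, had 3.21 and 3.18 in H3WT, 2.71 and 2.90 in H3R8C and 3.81 and 6.19 in H3R26C. For Hs3st3b1, which sulphates heparan chains, the values were 2.90 and 3.13 in H3WT, 2.07 and 2.20 in H3R8C and 3.32 and 5.47 in H3R26C. In these regions the H3R26C values stood above those of H3WT. Cxcl14, a chemokine, had 2.77 and 3.83 in H3WT, 1.48 and 1.27 in H3R8C and 2.47 and 3.40 in H3R26C, and H3R8C was the low genotype.

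**Figure D3:**
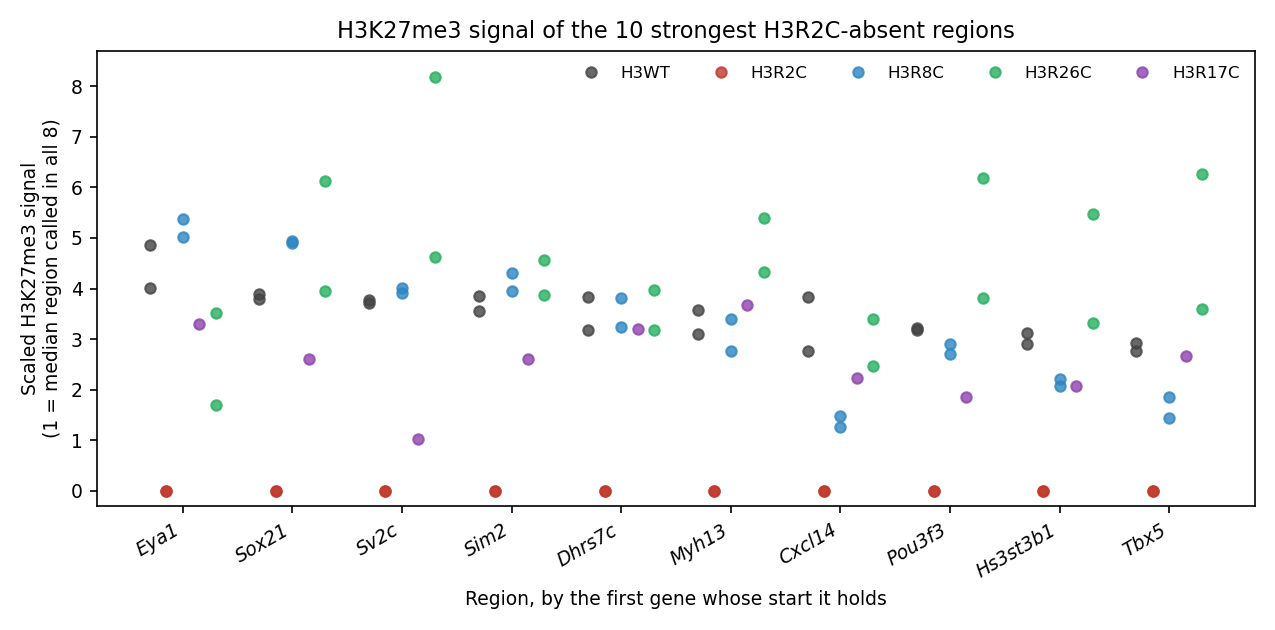
Scaled H3K27me3 signal (y axis) in the 10 H3R2C-absent regions with the highest mean H3WT signal, 1 point per independent library, with genotypes by colour. H3R2C lies at 0 in each, since the regions were chosen for having no H3R2C peak, and the other genotypes lie between 1.03 and 8.19.

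The length of a region did not follow its H3WT signal throughout. The longest H3R2C-absent region, 46.5 kb of chromosome 15 (102784451 to 102830950) at the non-coding gene Gm36560, had 2.88 and 2.23 in H3WT and 0.644 and 0.612 in H3R26C but 8.64 and 8.39 in H3R8C and 5.22 in H3R17C, and it was overlapped by HA peaks in all 10 anti-HA libraries. Sh3gl2, a gene for a protein of synaptic vesicle endocytosis, lay under 43.7 kb with 2.36 and 1.98 in H3WT, 6.12 and 4.12 in H3R8C and 4.16 and 4.61 in H3R26C. The start of Erbb4, a neuregulin receptor, had 2.88 and 2.22 in H3WT, 4.62 and 4.21 in H3R8C and 2.80 and 3.97 in H3R26C. A830018L16Rik had 2.38 and 2.13 in H3WT and 3.06 and 2.89 in H3R8C but 0.455 in H3R17C. The longest intergenic region, on chromosome 1 (56205201 to 56230700) and 407 kb from the nearest coding start, that of Hsfy2, had 0.256 and 0.155 in H3WT, 0.559 and 0.828 in H3R26C and 2.57 and 2.85 in H3R8C.

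Further regions at coding starts covered a range of functions. Nkx1-1 (homeobox) had 2.52 and 3.03 in H3WT and 3.25 and 4.40 in H3R26C, and Gsx1 (homeobox, forebrain) 2.17 and 2.51 in H3WT and 2.17 and 3.56 in H3R26C. Pax6, a factor of eye and brain development, had 1.80 and 2.28 in H3WT, 2.27 and 2.42 in H3R8C and 2.90 and 4.81 in H3R26C. Prox1, a factor of lymphatic endothelium and lens, had 1.66 and 1.93 in H3WT and 1.76 and 2.74 in H3R26C but 0.143 and 0.653 in H3R8C. Rimklb, a ligase that joins amino acids in the brain, had 2.48 and 2.25 in H3WT, 1.09 and 0.916 in H3R8C and 1.02 and 0.730 in H3R26C. In Rimklb both other mutants were lower than H3WT, unlike in Pax6. Isl1, a LIM homeobox factor of motor neurons and heart progenitors, lay under 23.7 kb with 0.668 and 1.24 in H3WT, 1.82 and 2.38 in H3R8C and 4.75 and 7.45 in H3R26C, and it had no peak in H3R17C. The other regions of the 30 strongest at coding starts had H3WT values between 1.43 and 2.77 and held L3mbtl4, Ism1, Scube1, Plxnc1, Trim71, Gm42517, Enox1, Gm21188, Hs6st3, Slain1, Fam169a and Frmd4b.

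The lists of H3R8C and H3R17C show whether the regions were called in mutants that the rule did not use. Of the 810 regions, 533 (65.8%) had a peak in both H3R8C libraries, 132 (16.3%) in 1 and 145 (17.9%) in neither, whereas of the other eligible regions 90.5%, 5.74% and 3.79% did. In the H3R17C list of replicates 2 and 3, 519 regions (64.1%) had a peak, against 92.6% of the other eligible regions. A peak in both H3R8C libraries and in H3R17C was present in 390 regions (48.1%), which were thus missed by H3R2C alone among the lists of 5 genotypes, against 86.2% of the other eligible regions. Neither H3R8C library nor H3R17C had a peak in 80 regions (9.88%), against 1.44%.

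The lower call rates went with weaker H3WT signal but were also seen within classes of it. Signal was not matched inside a class, and the H3R2C-absent regions had the smaller median length in every class. In signal class 1, 47.9% of the H3R2C-absent regions had a peak in both H3R8C libraries against 68.4% of the others, in class 3, 79.8% against 95.1% and in class 5, 96.4% against 99.8%. For H3R17C the shares were 46.8% against 72.8%, 80.6% against 96.2% and 100.0% against 100.0%. The regions called in both H3R8C libraries had a median of 13.6 CG per kb, and those called in neither had 11.6.

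**Figure D4:**
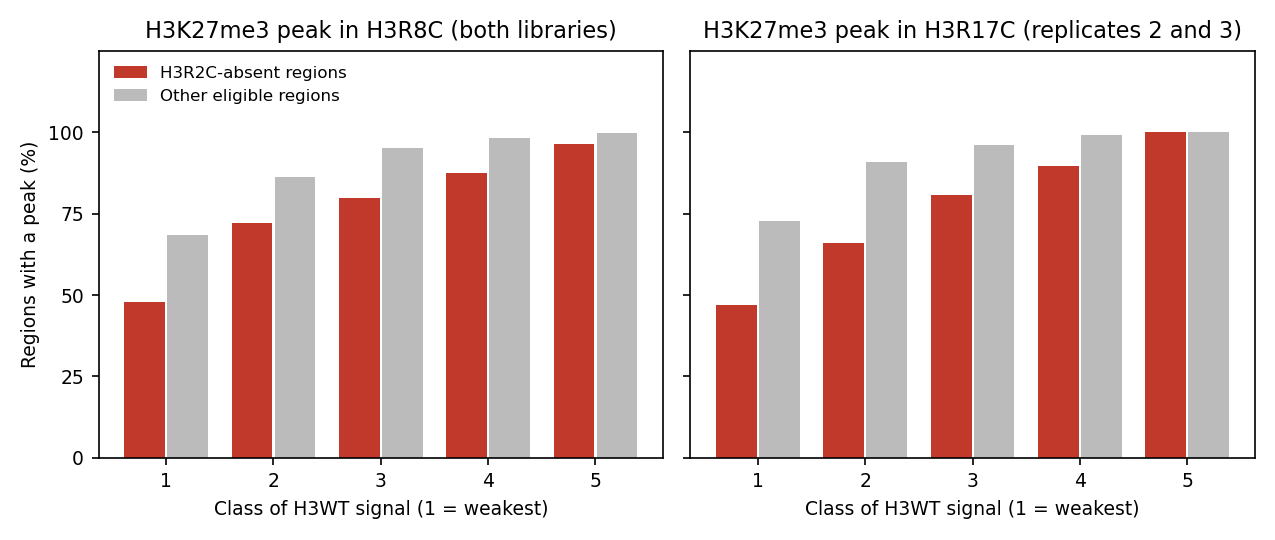
Percentage of regions with an H3K27me3 peak in both H3R8C libraries (left) and in the H3R17C list of replicates 2 and 3 (right), by class of mean H3WT signal (5 classes of equal size), for H3R2C-absent regions (red) and other eligible regions (grey). The red bars lie below the grey ones in all 5 classes of H3R8C and in classes 1 to 4 of H3R17C, and reach 100.0% in class 5 of H3R17C.

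H3R8C was then compared with H3WT by signal in limma over all 20900 regions called in both libraries of a genotype (sex chromosomes included), with the p-value adjusted by the Benjamini-Hochberg method at 0.05. Of the 810 regions, 92 (11.4%) were lower in H3R8C and 12 (1.48%) higher, where 2.66% and 3.30% of all regions were called in the same directions, and 1.93% and 0.452% of the other eligible regions. The median log2 difference, H3R8C minus H3WT, was -0.26 in the 810 regions, 0.02 in the other eligible regions and 0.00 in all. The H3R2C libraries entered the shared estimate of spread, and in these regions they had no spread because both were at 0. With both H3R2C libraries left out of the fit, an alternative added after the data were seen, 30 regions (3.70%) were lower and 6 (0.741%) higher, against 2.59% and 3.10% of all regions and 1.37% and 0.499% of the other eligible ones. Without either of the H3R8C libraries, 23 or 25 were lower. The rule required a peak in both H3WT libraries and set no condition on H3R8C, which can favour lower H3R8C values. The other eligible regions met the same condition. The H3R2C-absent regions differed from them in H3R2C calls, H3WT signal and length, and the source of the H3R8C difference was not tested. The counts are a description of the regions and no independent evidence of a loss in H3R8C.

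The 3 H3R2C-absent regions with the lowest adjusted p in this comparison were 2 lower ones and 1 higher one. Kcna1, a voltage-gated potassium channel of axons, had 1.68 and 1.36 in H3WT, 1.85 and 1.58 in H3R26C, 1.25 in H3R17C and no peak in H3R8C. A region of 15.2 kb on chromosome 13 (72689451 to 72704700), 56.9 kb from the start of the homeobox gene Irx2, had 1.37 and 1.24 in H3WT and 1.35 and 1.73 in H3R26C, while H3R8C had no peak. Both H3R8C and both H3R2C libraries took the fixed value of an uncalled region there and had no spread, which favours a low p. The rank of these 2 regions is therefore a description, and no fold is given for either. The higher one was the longest intergenic region described above. The 12 higher regions also included Gm36560, Carmil3, Pcdh10, Csmd3, Sh3gl2, Meox2, Nr5a2, Fat3 and Col9a1. Prdm16, a regulator of brown fat, had no peak in H3R8C or H3R17C, with 0.882 and 1.45 in H3WT against 0.511 and 1.00 in H3R26C.

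Anti-HA peaks, which mark the tagged histone, were scarce in the H3R2C-absent regions in every library. They overlapped 10.1% of the regions in both H3R2C libraries, 4.2% and 5.68% in H3WT, 4.2% and 3.70% in H3R8C, 6.30% and 6.17% in H3R17C and 5.31% and 4.81% in H3R26C. The H3R2C libraries were thus the highest of the 10. The other eligible regions, which were longer, were overlapped in 29.0% and 32.1% in H3R2C and in 14.9% to 21.3% in the other 8 libraries, so the H3R2C lists were also the highest there. In total 586 of the 810 regions (72.3%) had no HA peak in any library, 7 had one in all 10, 28 (3.46%) had one in both H3R2C libraries and 3 in both H3R2C libraries and nowhere else. Shares of regions overlapped are given with the lists as deposited, although H3WT replicates 1 and 2 had 15344 peaks of 10.7 kb median width and the other 9 lists 37907 to 52083 peaks of 0.8 to 2.65 kb.

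**Figure D5:**
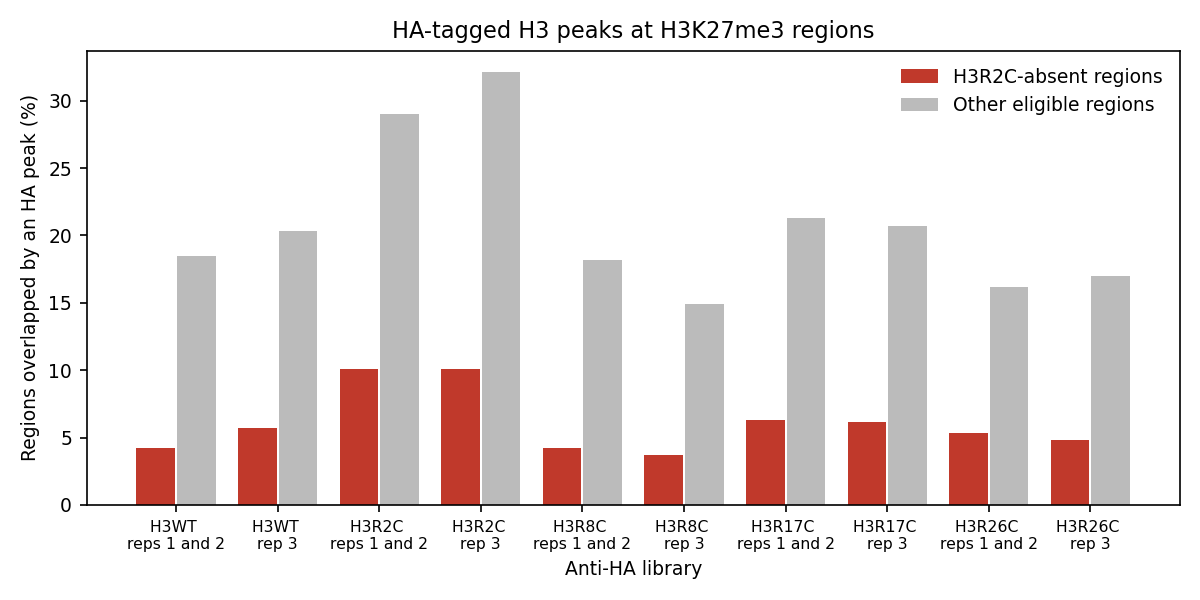
Percentage of H3R2C-absent regions (red) and of other eligible regions (grey) overlapped by an HA peak in each of the 10 anti-HA libraries (x axis). The red bars lie between 3.70% and 10.1%, below the grey bars in all 10 libraries, and both colours are highest in the 2 H3R2C libraries.

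As a value per library, the share of the H3R2C-absent regions minus that of the other eligible regions was taken. It was -14.85 ± 3.86 percentage points in the 8 mutant libraries (SD, n = 8) and -14.45 ± 0.19 in the 2 H3WT libraries (SD, n = 2), a difference of -0.40 (exact permutation test over libraries, two-sided, p = 1.0, where 0.0444 is the lowest p possible). In H3R2C it was -20.44 ± 2.17 (SD, n = 2), a difference from H3WT of -5.99 percentage points (exact permutation test over libraries, two-sided, p = 0.33, the lowest possible). A gap in percentage points widens with the overlap of a list as a whole. The H3R2C lists overlapped 29.0% and 32.1% of the other eligible regions, against 18.5% and 20.3% in H3WT. The value of -5.99 is therefore no measure of a relative lack of HA peaks in H3R2C. Both differences turned under other ways of counting. With the same number of top peaks from each list they were 4.85 (8 against 2, exact permutation p = 0.133) and 1.05 (H3R2C). With 50% of a region required to be covered they were 4.30 (exact permutation p = 0.0444) and 3.83.

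By signal, 84 of the 810 regions had an HA peak in at least 2 of the 10 libraries and could be fitted. They included runs of 4, 2 and 5 regions in 1 stretch of chromosome 8 (123537851 to 123619600), so the 84 are not all separate loci. Of the 84, 3 were higher in H3R2C than in H3WT and 1 lower by limma (Benjamini-Hochberg at 0.05), beside 4.09% and 0.766% of the 6138 regions fitted. The higher ones lay in an intron of Gng2, in an intron of L3mbtl4 and in an intergenic region of chromosome 15 (31958751 to 31971750), each with HA peaks in both H3R2C libraries and in no other. The lower one was Carmil3, which had HA peaks in both H3WT libraries and in no other. These 4 regions entered the fit only through the 2 libraries in which they had a peak and so had to differ, and their calls are a description of where HA peaks lay. None of the 4 calls was kept when any 1 of the 10 libraries was left out. Leaving out either of the 2 libraries with a peak took the region out of the fit, so that part of the outcome was fixed. None of the 6138 regions passed the threshold in H3R8C, H3R17C or H3R26C by limma, and 8, 9 and 7 of the 84 had an unadjusted p under 0.05 there (532, 625 and 598 of all).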

How the data were processed

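CUT&RUN reads were aligned by the authors to mm10 and peaks called with SEACR 1.3 (stringent, normalised, numeric threshold of 0.01), 1 list per labelled sample. Each deposited peak has a total and a maximum signal, a coverage sum that, per the labels and methods, the authors did not put on 1 depth scale. The lists hold no read counts. The study gives read totals per sample, which were not used here, since a list shared by 2 samples cannot be tied to 1 total. Sensitivity is described by the lowest signal of a list, and no counting interval is given. SEACR keeps a top share of blocks, so the single blocks of an uncalled region lie under a level and not at zero.

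The 30 anti-H3K27me3 and anti-HA samples of 60 were grouped by title. Identical lists were counted once. The regions, gene lists and tests were chosen with earlier results of these data known, and the regions themselves were chosen by the calls described. Named regions were the 10 longest, the 10 strongest in H3WT, the 3 runs of most regions (ties in genome order), up to 30 at coding starts and the 3 lowest adjusted p-values. Region signal was divided by its median over regions with a peak in all libraries fitted. Limma 3.58.1 (R 4.3.3, lmFit, eBayes with trend) was fitted to log2(scaled signal + 0.25), where regions without a peak take 1 fixed value. The fit was also run on simulated data. The simulated run is not taken as a check of calls in the H3R2C-absent regions, which had this fixed value in both H3R2C libraries. HA signal was shared out by the overlapped part of a peak, and regions with an HA peak in at least 2 libraries were fitted. Classes (start within 1 kb, exon, intron, intergenic, in this order) came from GENCODE for GRCm38, the build of mm10, and sequences from GRCm38. Alternatives covered peak thresholds, merging, overlap, replicates, pseudocounts, scaling and single libraries. The 30 other samples (IgG, anti-H3K4me3) were not used here.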

Additional observations from a re-analysis of the deposited data

Results flagged for a closer look

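In the H3R17C replicate 1 list, whose file name gives another mark than its label and which entered no comparison, 7 of the 810 regions (0.864%) overlapped a peak, against 1.75% of the other eligible regions. It is listed because a count of 0 would allow up to 0.370%, a comparison within 1 list that says nothing particular to these regions. The median log2 difference from H3WT over regions called in all 8 libraries of chromosome 13 was -0.29 for H3R2C and 0.22 for H3R26C, with both libraries of each on opposite sides of 0. This difference between the mutants was not tested.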

How the results depend on the processing

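The count of regions (810) depended most on how calls were made. It was 245 when 50% of a region had to be covered, 255 with H3WT and H3R26C calls from the upper 50% of peaks (chosen after seeing the data), 1972 by majority of the 3 labelled replicates, and 814 to 1541 with 1 library left out, the highest without the H3R2C list of replicates 1 and 2. With the upper 50% of peaks in every list, 69.5% of the regions were called in both H3R8C libraries, 69.5% in H3R17C, 50.6% lay at starts and 26% were intergenic. With 50% covered these were 56.7%, 46.1%, 49.4% and 30.2%, and 36.7% had another as the next eligible region. By majority they were 60%, 51.9%, 25%, 42.4% and 62.9%. With the calls chosen after seeing the data, H3R17C called 86.7%, 63.1% lay at starts, 21.6% were intergenic and 36.9% had a neighbour. With coding genes alone, 34.8% lay at starts and 41.5% were intergenic. Leaving out 1 library gave 56.4% to 76.2% in H3R8C, 54.3% to 70.1% in H3R17C, 29.8% to 38.1% at starts, 34.5% to 38.6% intergenic, 9.15% to 11.5% on chromosome 13 and 52.4% to 62.0% with a neighbour. When an H3R8C library was the one left out, a peak in the other was enough, which gave 72.3% and 76.2%. With both H3R8C libraries kept, the highest share was 69.4%.

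The HA difference of 8 mutant against 2 H3WT libraries turned to 4.85 percentage points with equal numbers of top peaks and to 4.30 with 50% covered, and ran from -0.97 to 0.62 with 1 library left out (0.24 without the H3K27me3 list of H3R2C replicates 1 and 2, and 0.18 and 0.62 without either anti-HA list of H3R2C). That of H3R2C turned to 1.05 and 3.83 under the same settings and ran from -7.53 to -4.45 with 1 library left out. The cause was not tested.

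In limma, regions lower in H3R8C (92) numbered 145 with no scaling, 147 by maximum signal, 284 with all 3 labelled replicates, 30 without both H3R2C libraries and 23 to 133 with 1 library left out. Regions higher in H3R8C (12) numbered 0 with no scaling, 0 by maximum signal, 88 with all 3 labelled replicates, 6 without both H3R2C libraries and 2 to 15 with 1 library left out. Among regions with a peak in every library the counts were 0 and 0, because no H3R2C-absent region can be in that set. Duplicated lists have no spread, which sets the counts with all 3 labelled replicates.

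The HA counts in H3R2C (1 lower, 3 higher) were 0 and 0 with a pseudocount of 1, without the trend, with the whole signal of each overlapping peak, in regions called in all 10 libraries and without any 1 library. The regions behind these counts had HA peaks in 2 libraries only. They could not be among regions called in all 10, nor be fitted without either of their 2 libraries. Lower counts were 2 with a pseudocount of 0.05, 2 with no scaling, 2 by maximum signal and 6 with all 3 labelled replicates, which gave 15 higher. Changes in the other mutants (0) were 2, 3, 3 and 15 under these settings, 1 with no filter and 1 in regions with a peak in every library.

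The replicate numbers did not pair the libraries: correlations of the replicate differences between genotypes were -0.01 to 0.21 for H3K27me3 and -0.26 to 0.20 for HA. With the replicate block, 67 regions were lower and 11 higher in H3R8C, and the HA counts in H3R2C were 0 and 0. Read totals were not used, and a region absent from a list holds no single peak that reached that list's lowest signal.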
